A study of Mus musculus with 8 samples.

Results

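The miR-378 family comprised 5 mature miRNAs on this mouse array: mmu-miR-378a-3p, mmu-miR-378a-5p, mmu-miR-378b, mmu-miR-378c and mmu-miR-378d, written below without the species prefix. They were chosen by name, as the entries of the array that carry these gene names and are not control spots, and were 5 of 1881 mouse miRNAs, with 10 of 4415 probes. The name list was drawn up with the UUO and Sham signals of these same arrays known, so the difference between the groups is given below as a description of these members, with its error and no p-value. The UUO group was kidney tissue taken from 8-week-old C57BL/6 males 7 days after unilateral ureteral obstruction (UUO), a ligation of one ureter that injures the kidney and leads to fibrosis. The Sham group was kidney tissue of C57BL/6 males of the same age, 7 days after sham surgery. There were 4 samples in each group, UUO 1 to 4 and Sham 1, 2, 3 and 8, each on 1 array, and no genetic change or drug is named in the labels for either group. The labels number the samples and do not state that each came from a separate mouse, so the errors below measure the spread between these samples. The tissue was measured in bulk, so that fewer cells of a type and less miRNA per cell cannot be told apart.

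A miRNA is a short RNA that pairs, through the bases called its seed, with messenger RNAs and lowers their translation or stability. miR-378a lies within Ppargc1b, the gene of the transcriptional coactivator PGC-1β, which drives mitochondrial and fatty acid oxidation genes, and both arms of its hairpin give a mature miRNA. In mice, loss of both arms of miR-378a has been linked to raised mitochondrial oxidation and resistance to diet-induced obesity, with the carnitine acetyltransferase gene Crat reported as a target of the 3p arm and the Mediator subunit gene Med13 as a target of the 5p arm. In human cells the 5p arm was reported to target the nuclear receptor ERRγ and the factor GABPA. Kidney tubule cells are rich in mitochondria and burn fatty acids, and miR-378 is also abundant in striated muscle and brown fat. The separate roles of miR-378b, miR-378c and miR-378d are less well described.

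The mature sequences of miR-378b, miR-378c and miR-378d show how closely the members resemble each other and why their signals are set side by side here. They are RefSeq entries on mouse build GRCm38.p6, written 5′ to 3′, with the seed (bases 2 to 8) in capitals.
miR-378b: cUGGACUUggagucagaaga
miR-378c: aCUGGACUuggagucagaagc
miR-378d: aCUGGCCUuggagucagaaggu

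miR-378b is read from the plus strand of chr11:88352839-88352858, miR-378c from the minus strand of chr14:46954905-46954925 and miR-378d from the minus strand of chr10:126710355-126710376. On the same assembly Mir378b lies within the span of Msi2 and Mir378c within that of Samd4. Mir378d lies within no other gene of the table. Counted from the 5′ end, miR-378c and miR-378d differ by A6C within the seed and by C21G near the 3′ end, and miR-378d has 1 further base. miR-378b starts 1 base later than miR-378c, which moves its seed along by 1 base, and over the bases that both have it differs only by A20C, counted in miR-378b. The seeds are therefore UGGACUU in miR-378b, CUGGACU in miR-378c and CUGGCCU in miR-378d, and none was shared with another mouse mature miRNA of the RefSeq table used here. No sequence of miR-378a was compared, so whether a miR-378a arm shares a seed with these members is not addressed. The mature miRNA occupies bases 67 to 86 of the 92-base hairpin of miR-378b, bases 4 to 24 of 99 in miR-378c and bases 16 to 37 of 110 in miR-378d.

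The probes of these 3 members are printed because they set what the array can separate. They are DNA, 5′ to 3′, as the deposited files list them, and capitals mark the run of 14 bases that all 6 probes share.
miR-378b, 16 bases: tCTTCTGACTCCAAGt
miR-378b, 17 bases: tCTTCTGACTCCAAGtc
miR-378c, 15 bases: gCTTCTGACTCCAAG
miR-378c, 16 bases: gCTTCTGACTCCAAGt
miR-378d, 16 bases: acCTTCTGACTCCAAG
miR-378d, 17 bases: acCTTCTGACTCCAAGg

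Each probe is complementary to its own miRNA from the 3′ end inward, and only 1 to 3 of its bases lie outside the shared run. The shorter probes of miR-378c and miR-378d end at base 7 of their miRNA and do not reach base 6, where the 2 miRNAs differ, whereas the longer ones include it. No probe was shared outright, since no sequence was listed for more than 1 member. Pairing with other members was nevertheless long: the miR-378b probes matched 15 and 16 bases of miR-378c and 14 of miR-378d, and the probes of miR-378a-3p, which are not printed, cannot by their sequence tell it from miR-378d. The miR-378a-5p probes, of 17 and 18 bases, matched none of the 3 for more than 4 bases. Outside the family, the longest run that a member's probe shared with another mouse probe was 9 bases for miR-378a-5p and 8 bases for the others. How much of a signal came from another member was not tested, so the values of miR-378a-3p, miR-378b, miR-378c and miR-378d are not separate measurements of 4 miRNAs.

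All 10 probes of the family gave lower signals in UUO kidneys than in Sham kidneys. With each miRNA taken by its brighter probe, the log2 fold changes, UUO over Sham, lay between −1.03 and −0.91, which is 2.04-fold and 1.88-fold lower, against a median of 0.06 over all 408 miRNAs tested. Signals are intensities with the background subtracted, divided by the array's 75th percentile of the 623 probes that were above background on each of the 8 arrays, then given as log2, and the changes and their standard errors (SE) come from a limma fit with 4 arrays per group. A miRNA was tested when its probe was above background on at least 4 of the 8 arrays.

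miR-378a-3p is the more studied arm of the Ppargc1b hairpin, on chromosome 18. It had log2 scaled signals of −0.04, 0.04, −0.03 and −0.25 in UUO 1 to 4 on its 14-base probe, against 0.90, 0.86, 0.88 and 0.93 in Sham 1, 2, 3 and 8. The highest UUO array was below the lowest Sham array, and within the UUO group UUO 4 stood lowest. Before scaling, these were intensities of 469, 447, 451 and 403 in the UUO arrays, against 771, 714, 744 and 784 in the Sham arrays. The fold change on the log2 scale was −0.96 ± 0.07 (SE), or 1.95-fold lower. The 13-base probe averaged −0.61 ± 0.12 in UUO and 0.33 ± 0.03 in Sham kidneys (SD, n = 4 each, log2 scaled signal), a change of −0.94 ± 0.06 (SE).

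miR-378a-5p, the other arm of the same hairpin, had log2 scaled signals of −3.49, −3.36, −3.44 and −3.67 in UUO 1 to 4 on its 18-base probe, against −2.47, −2.47, −2.48 and −2.43 in Sham 1, 2, 3 and 8. The groups did not overlap, and the Sham arrays lay closer together than the UUO arrays. Its intensities ran from 37.9 to 43.0 in UUO and from 71.2 to 76.3 in Sham arrays. The change was −1.03 ± 0.07 (SE, log2), or 2.04-fold lower, on this probe and −1.0 ± 0.08 on the 17-base probe. The probes of the 5p arm share no run longer than 3 bases with those of the 3p arm, so the arms were measured without a common sequence.

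The balance of the arms was compared within each array, as the log2 signal of miR-378a-3p minus that of miR-378a-5p; only its shift between groups is of use, since 2 probes bind differently. It was 3.45, 3.40, 3.41 and 3.41 in UUO 1 to 4, against 3.37, 3.33, 3.36 and 3.36 in Sham 1, 2, 3 and 8. The groups did not overlap, but the shift was small, 0.06 on the log2 scale beside SDs of 0.02 in each group. It stayed between 0.05 and 0.07 with any 1 array left out and under all but 2 of the other ways of processing. Its sign turned to −0.30 with normexp background correction, which adds an offset of 50, and it was 0.30 with quantile normalization. Because of these 2, no direction of the arm balance is given.

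miR-378b gave log2 scaled signals of 0.32, 0.41, 0.34 and 0.16 in UUO 1 to 4 on its 17-base probe, against 1.33, 1.26, 1.30 and 1.33 in Sham 1, 2, 3 and 8. All 4 UUO arrays were below all 4 Sham arrays, with intensities of 538 to 600 in UUO and 946 to 1041 in Sham kidneys. The change was −1.0 ± 0.06 (SE, log2), and −1.02 ± 0.06 on the 16-base probe, which averaged −1.73 ± 0.11 in UUO and −0.71 ± 0.05 in Sham kidneys (SD, n = 4 each). miR-378b starts within the sequence of miR-378c, as the printed sequences show.

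miR-378d, the member with the A6C difference from miR-378c, had log2 scaled signals of 0.29, 0.41, 0.32 and 0.16 in UUO 1 to 4 on its 16-base probe, against 1.33, 1.23, 1.27 and 1.31 in Sham 1, 2, 3 and 8. The groups did not overlap. The change was −0.99 ± 0.06 (SE, log2), or 1.98-fold lower. The 17-base probe, which reaches base 6 of the miRNA, averaged −0.54 ± 0.11 in UUO and 0.44 ± 0.03 in Sham kidneys (SD, n = 4 each) and changed by −0.98 ± 0.06 (SE). The log2 signal of the longer minus that of the shorter probe was −0.84 ± 0.01 in UUO and −0.85 ± 0.01 in Sham kidneys (SD, n = 4 each), and on this measure the groups overlapped. Only in this member was the longer probe the dimmer. In Sham kidneys the same difference averaged 0.56 for miR-378a-3p, 0.30 for miR-378a-5p, 2.02 for miR-378b and 2.36 for miR-378c. The reason for the reversal was not tested.

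The 16-base probe of miR-378c had log2 scaled signals of −2.59, −2.45, −2.63 and −2.82 in UUO 1 to 4, against −1.62, −1.74, −1.78 and −1.70 in Sham 1, 2, 3 and 8, without overlap. The change was −0.91 ± 0.08 (SE, log2), or 1.88-fold lower. The 15-base probe was detected on 3 of 4 UUO arrays and on 4 of 4 Sham arrays, with intensities of 12.0 to 15.8 in the UUO arrays, against 23.2 to 26.0 in the Sham arrays. On 3 of the UUO arrays its scaled signal lay at the floor of −4.89, the level below which not every array had a detected probe. Its fitted change of −0.80 ± 0.05 (SE, log2) is limited by that floor, and so is the SE, since these 3 values are equal. With normexp background correction the change of this probe was −0.17.

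**Figure D1:**
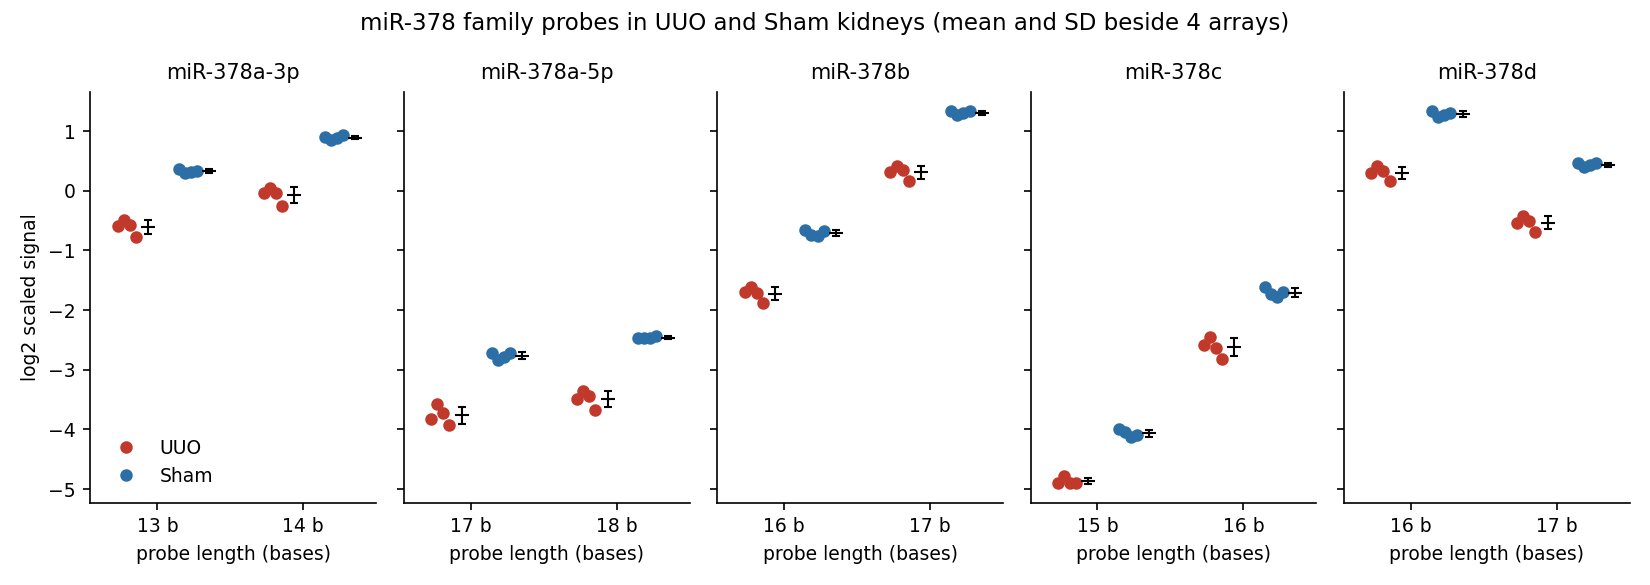
The log2 scaled signal (vertical axis) of each family probe on 4 UUO arrays (red) and 4 Sham arrays (blue), with 1 panel per miRNA, probe length in bases (b) along the horizontal axis and the mean ± SD of each group in black. On each of the 10 probes all UUO points lie below all Sham points, and the 15-base miR-378c probe sits near the floor of −4.89 in UUO.

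Over the family the probes differed little from one another. Those of miR-378a-3p, miR-378b, miR-378c and miR-378d overlap in sequence, so their likeness is not that of independent measurements. The 10 log2 changes spanned 0.23, from −1.03 to −0.80, and from −1.03 to −0.91 for the 9 probes detected on all 8 arrays, with SEs of 0.06 to 0.08 for these 9. The SE of 0.05 of the 15-base miR-378c probe is limited by the floor. The lowest Sham array exceeded the highest UUO array by 0.66 to 0.88 on the log2 scale, while SDs within a group were 0.02 to 0.15. Averages rested on 11 to 15 spots per probe and array, whose coefficient of variation was 1.38 to 11.7% for the 9 probes detected everywhere and up to 22.2% for the 15-base miR-378c probe. The number of arrays, not of spots, limits the precision.

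At an adjusted p under 0.05 (limma, Benjamini-Hochberg over 408 miRNAs), 5 of the 5 members were called lower, where 27.7% of the tested miRNAs were. With groups that do not overlap, 5 of the 5 lay lower, where 26.2% of the tested miRNAs did and 35% lay higher. Of the 10 probes, 10 lay lower without overlap, where 25.6% of the 771 tested probes did, and 10 were called lower, where 27.2% were. As the family was picked with this comparison known, these counts are given beside the background and nothing is read from them. Of the 403 tested miRNAs outside the family, 22 had a change at or below that of miR-378c (−0.91).

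**Figure D2:**
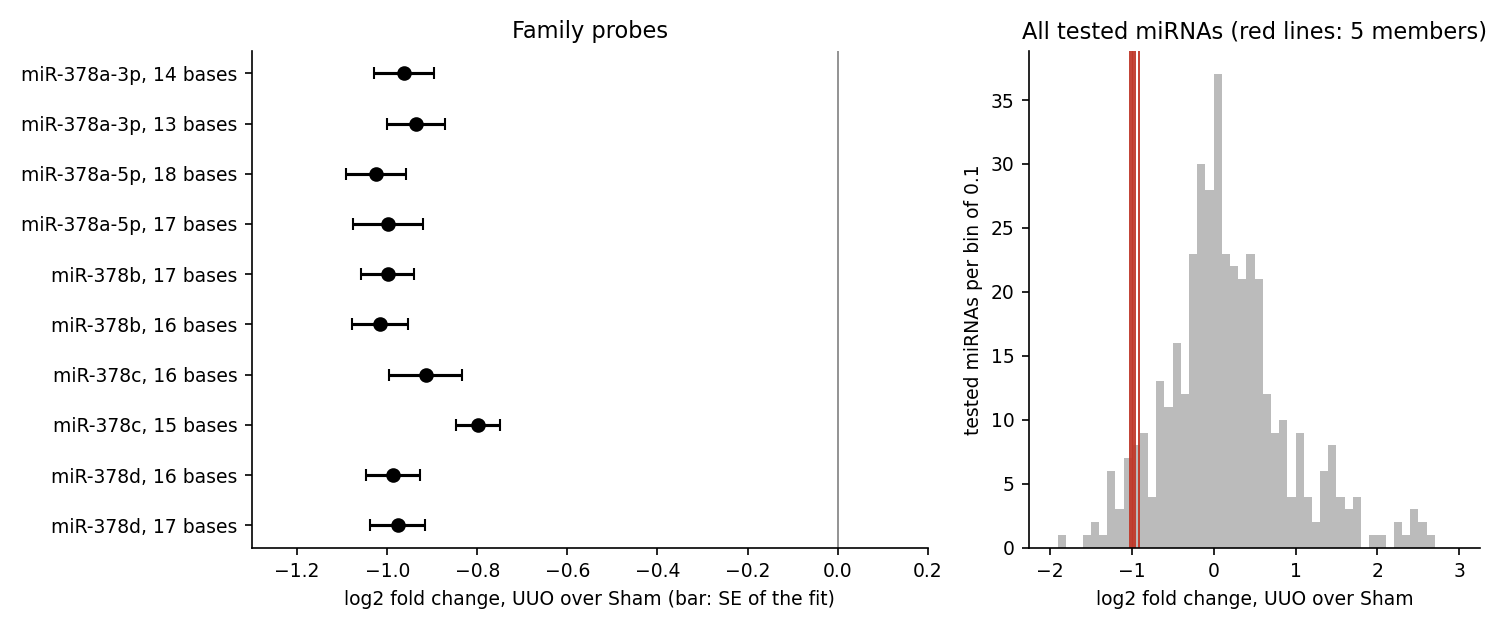
Left, the log2 fold change (UUO over Sham, horizontal axis) of each family probe with the SE of the limma fit. Right, the number of tested miRNAs per bin of 0.1 in log2 fold change for all 408, with the 5 members as red lines; the members lie between −1.03 and −0.91, on the lower side of a distribution with median 0.06.

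Within the UUO group the probes shared their highest and lowest array on the scaled signal. UUO 2 gave the highest UUO value on 10 of the 10 probes and UUO 4 the lowest on 9. On the tenth, the 15-base miR-378c probe, UUO 4 was at the floor together with UUO 1 and UUO 3. The place of UUO 2 depended on the scaling, as its scaling value (435) was the smallest of the UUO arrays. Before scaling, UUO 1 exceeded UUO 2 on most probes, with 469 against 447 on the 14-base miR-378a-3p probe. UUO 2 stayed highest on the 17-base miR-378a-5p and 15-base miR-378c probes. The neighbouring miRNAs named below also had UUO 2 highest and UUO 4 lowest on the scaled signal, so the family was not alone in this order. These neighbours were picked for likeness on the same 8 arrays, and how common the order was among other miRNAs was not tested. The median of the 10 probes was −1.15, −1.05, −1.14 and −1.32 in UUO 1 to 4 and −0.15, −0.22, −0.22 and −0.17 in Sham 1, 2, 3 and 8 (log2 scaled signal). Among the UUO arrays, UUO 4 also had the lowest summed signal of the kidney tubule miRNAs (31.6), the leukocyte miRNAs (6.92), the endothelial miRNAs (10.67) and the erythroid miRNAs (2.12), and the highest of the fibroblast miRNAs (12.9). Without UUO 4 the median change of the family was −0.93, and leaving out any 1 array gave −1.02 to −0.93, against −0.98 with all arrays.

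The miRNAs with profiles most like the family's were found by the root mean square difference of the 8 log2 values, after each miRNA was centred on its Sham mean. For miR-378a-3p the nearest outside the family were miR-29c-3p (0.05), miR-29c-5p (0.05), miR-101c (0.08), miR-185-5p (0.09) and miR-30a-3p (0.09). For miR-378a-5p they were miR-29c-5p (0.03), miR-30c-5p (0.05), miR-365-3p (0.06), miR-30e-3p (0.08) and miR-29c-3p (0.08). miR-29 miRNAs are known to target collagen messages, and miR-30 miRNAs are abundant in kidney epithelium. The other members lay at 0.03 (miR-378b), 0.03 (miR-378d), 0.05 (miR-378a-5p) and 0.06 (miR-378c) from miR-378a-3p, so miR-29c-3p and miR-29c-5p were no farther from it than miR-378c was. These 8 neighbours had log2 changes from −1.11 ± 0.07 (miR-30e-3p) to −0.86 ± 0.07 (miR-101c) (SE). The measure runs over 8 arrays of 1 experiment, is set mainly by the difference between the groups, and is given as a description.

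**Figure D3:**
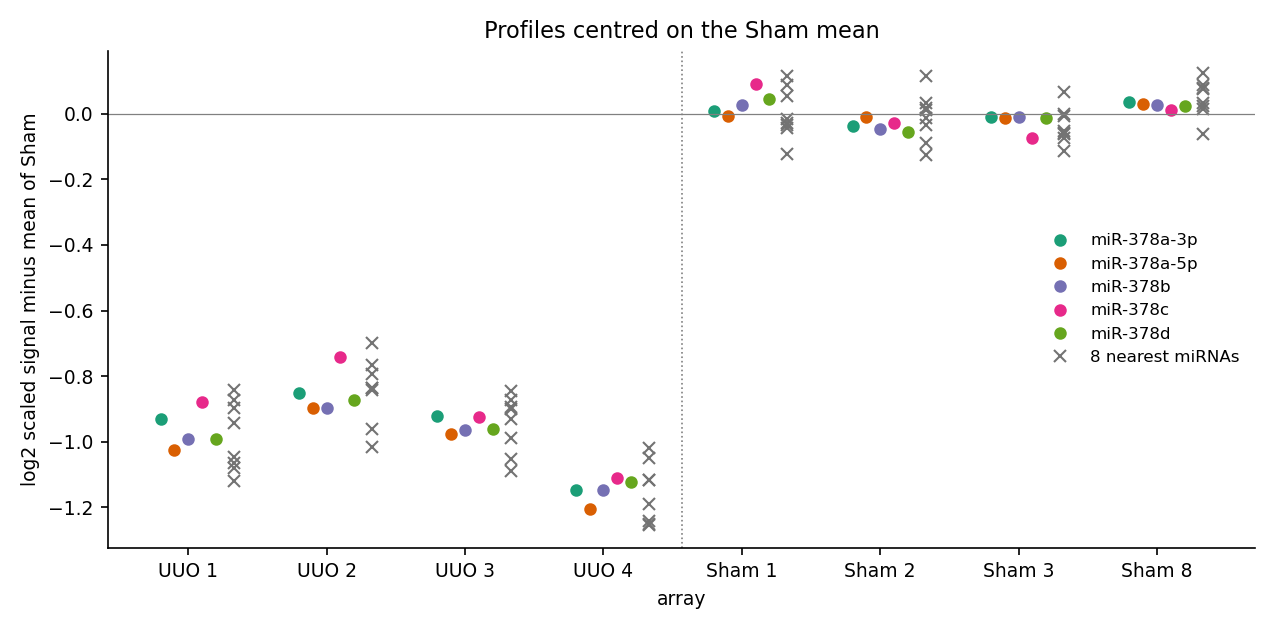
The log2 scaled signal minus the mean of the 4 Sham arrays (vertical axis) on each array, for the 5 members (coloured points) and their 8 nearest miRNAs (grey crosses). Members and neighbours lie together on each array, with UUO 4 lowest and UUO 2 highest among the UUO arrays for both. The neighbours were chosen for this likeness on the same arrays.

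Other miRNAs tied to energy metabolism did not share 1 direction, although more were called lower than higher. Over both lists below, 17 were tested, 7 were called lower and 2 higher. Among miRNAs of introns of metabolic genes, 6 were on the array, 3 were tested, 2 were called lower and 0 higher, with a median log2 change of −0.61 beside 0.06 over all tested miRNAs. Over all tested miRNAs 27.7% were called lower and 39.7% higher; among the calls 58.9% were higher, from 33.4 to 84.9% over the scalings and signal summaries. miR-107-3p, from an intron of the pantothenate kinase gene Pank1, fell by 0.61 on the log2 scale (SE 0.07, limma adjusted p = 8.09e-05), with 2.06 ± 0.13 in UUO and 2.67 ± 0.03 in Sham kidneys (SD, n = 4 each). miR-33-5p, from an intron of the sterol regulator Srebf2, fell by 0.71 on the log2 scale (SE 0.08, limma adjusted p = 7.47e-05). miR-103-3p, whose sequence closely resembles that of miR-107-3p, was at −0.14 ± 0.06 (SE, log2, limma adjusted p = 0.0502) and was called lower in 7 and higher in 1 of 11 settings, reaching 0.26 with scaling to the dmr controls.

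Of 21 miRNAs reported to act on mitochondria or energy use, or enriched in oxidative muscle and brown fat, 14 were tested, 5 were called lower, 2 higher and 7 not called, with a median log2 change of −0.17. Over all tested miRNAs the shares were 27.7% lower and 39.7% higher. The 7 that were not tested were not well above background on any array. miR-365-3p and miR-193b-3p, a pair linked to brown fat, fell by 1.04 (SE 0.09, limma adjusted p = 2.83e-05) and fell by 0.59 (SE 0.05, limma adjusted p = 2.90e-05) on the log2 scale. miR-455-5p and miR-455-3p, linked to the same tissue, fell by 0.82 (SE 0.11, limma adjusted p = 0.000268) and fell by 0.80 (SE 0.14, limma adjusted p = 0.00105). miR-338-3p, reported in neurons to act on a cytochrome oxidase subunit, was called lower at −0.18 ± 0.06 (SE, limma adjusted p = 0.0302) but reached 0.22 with the dmr scaling. miR-494-3p rose by 0.92 (SE 0.18, limma adjusted p = 0.00227), and miR-181c-5p, reported in heart to act on a mitochondrial message, was called higher at 0.25 ± 0.07 (SE, limma adjusted p = 0.0118) but was below 0 in 3 of 11 settings. miR-210-3p, a hypoxia miRNA that acts on iron-sulphur cluster assembly, was at −0.36 ± 0.23 (SE, limma adjusted p = 0.19).

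Markers of several cell types moved between the same groups, and their part in the family's difference was not tested. Of the 6 kidney tubule miRNAs 4 fell and 2 were not called, and their summed scaled signal was 31.6 to 36.7 in UUO and 49.96 to 53.7 in Sham arrays. miR-192-5p, enriched in proximal tubule, fell by 1.14 on the log2 scale (SE 0.11, limma adjusted p = 4.38e-05), and miR-200b-3p, an epithelial miRNA, fell by 0.34 (SE 0.06, limma adjusted p = 0.00113), although it reached 0.07 with the dmr scaling. Of the 5 leukocyte miRNAs 5 rose, with sums of 6.92 to 7.85 in UUO and 1.64 to 1.88 in Sham arrays, and of the 3 fibroblast miRNAs 3 rose, with sums of 10.8 to 12.9 in UUO and 2.96 to 3.35 in Sham arrays. The 2 endothelial miRNAs summed to 10.67 to 12.4 in UUO and 12.5 to 13.2 in Sham arrays, with 1 called lower. Of the 3 erythroid miRNAs 2 fell, with sums of 2.12 to 3.84 in UUO and 3.71 to 5.46 in Sham arrays. miR-122-5p, of liver, was above background on 0 UUO arrays and on 4 Sham arrays.

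The striated muscle miRNAs gave little signal in either group, and how much of the family's signal came from muscle was not tested. Of these 4 marker miRNAs, miR-206-3p and miR-499-5p were not well above background on any array. miR-133a-3p was detected on 2 UUO and 2 Sham arrays. The list summed to 0.19 to 0.24 in UUO and 0.19 to 0.25 in Sham arrays. Values below the floor entered these sums at the floor, which makes the groups more alike. miR-1a-3p was at −0.19 ± 0.21 (SE, log2, limma adjusted p = 0.452) and miR-133a-3p at 0.06 ± 0.07 (SE, log2, limma adjusted p = 0.489), and 0 of the 4 were called.

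The size of the family's difference depended on the processing while its direction did not. Over 11 ways of processing, the change of miR-378a-3p ran from −1.29 with the software's total signal per miRNA to −0.56 with scaling to the dmr control features, the control spots whose names in the files start with dmr. Between the same 2 settings the range was −1.34 to −0.60 for miR-378b and −1.32 to −0.58 for miR-378d. For miR-378a-5p it was −1.35 with the total signal to −0.57 with normexp background correction. For miR-378c it was −1.32 with quantile normalization to −0.51 with the dmr features. The median of all tested miRNAs moved too, from −0.23 with the total signal to 0.45 with the dmr features. Relative to that median the change of miR-378a-3p ran from −1.06 to −0.86 and that of miR-378b from −1.11 to −0.91, a narrower range. Those of miR-378a-5p and miR-378c ran from −1.28 to −0.56 and from −1.28 to −0.61, both from quantile normalization to normexp correction. The normexp correction, which adds an offset of 50, also gave the −0.86 and the −0.91.

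The authors' deposited table gives each miRNA as a ratio to 1 value over the arrays, made from the total signal. In the authors' deposited table miR-378a-3p stood at 0.638, 0.695, 0.667 and 0.533 in UUO 1 to 4, against 1.44, 1.52, 1.58 and 1.46 in Sham 1, 2, 3 and 8. In the authors' deposited table the other 4 members lay between 0.513 and 0.720 in UUO and between 1.39 and 1.60 in Sham arrays, without overlap.

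**Figure D4:**
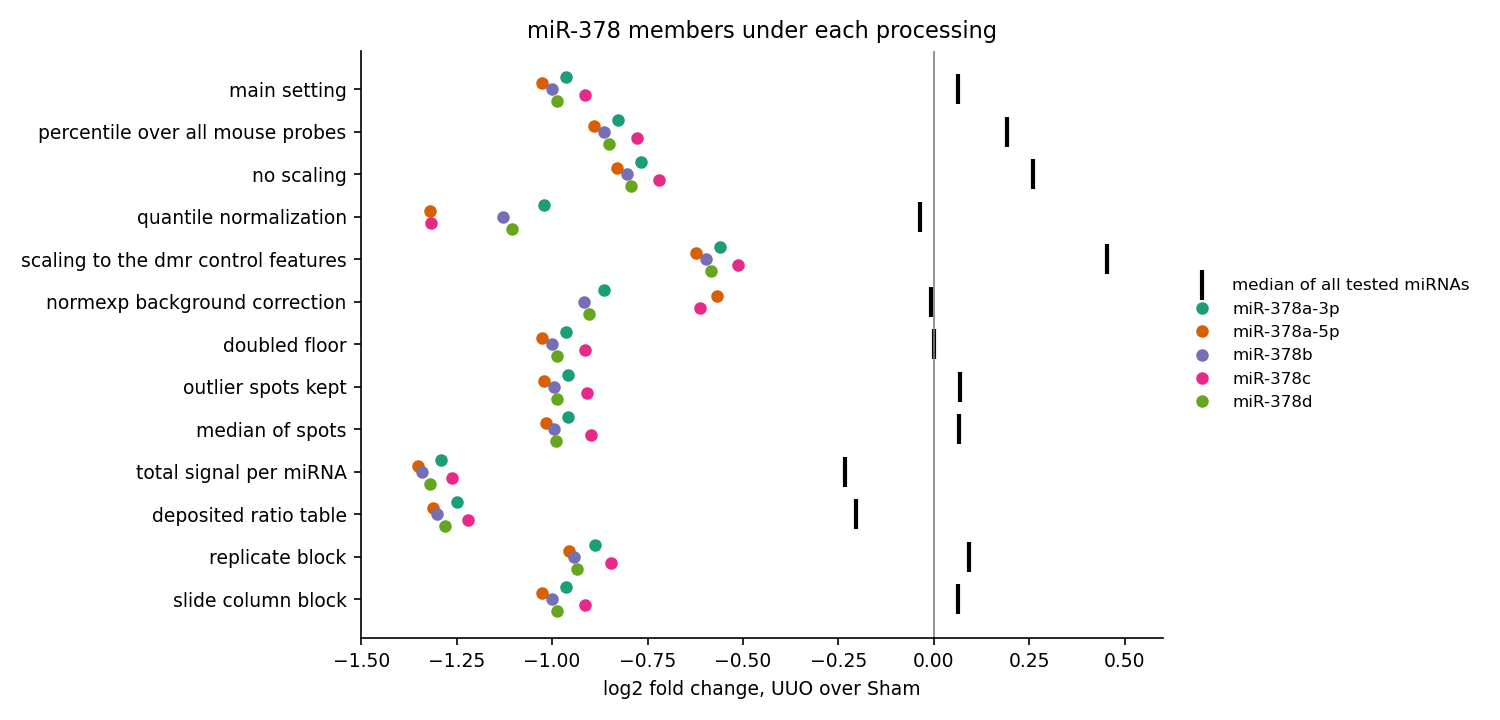
The log2 fold change (UUO over Sham, horizontal axis) of each member (coloured points) under each way of processing (rows), with the median of all tested miRNAs as a black bar. All members lie below 0 in every row shown, from −1.35 to −0.51, and the bars move with the processing, from −0.23 to 0.45.

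Between 740 and 800 probes were detected per UUO array and between 720 and 754 per Sham array, and no mouse spot was saturated. Correlations over the tested miRNAs were 0.991 to 0.999 within groups and 0.948 to 0.964 between groups, and the scaling value, a 75th percentile, was 435 to 482 in UUO and 394 to 413 in Sham arrays. By the array positions recorded with the files, the UUO arrays lay in row 2 of the slide and the Sham arrays in row 1, so slide row and group cannot be told apart.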

How the data were processed

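miRNA was measured in 8 kidney samples, 1 Agilent 1-colour array each. Per the file headers, Agilent Feature Extraction 10.7.3.1 made the deposited intensities; it subtracted a spatial background and did not normalize between arrays. In the deposited ratio table the values were total signals multiplied by an array factor, of unstated basis, over a value per miRNA.

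Spots marked as outliers (2.64 to 2.95%) were dropped before each probe's spots were averaged. A probe was detected where over 50% of its spots were well above background. Signals were divided by the 75th percentile of the 623 probes detected on all 8 arrays, raised to a floor (log2 −4.89) and given as log2. A miRNA was represented by its brightest probe; 408 miRNAs and 771 probes, detected on at least 4 arrays, were fitted in limma 3.58.1 (R 4.3.3) on group alone, with Benjamini-Hochberg adjustment, and the fit was tested on simulated data. Members, lists and alternatives were chosen with earlier results of these data known. Named were all members, the 5 nearest profiles of each miR-378a arm, and called list members, or the 2 brightest where none was called; miR-103-3p, miR-210-3p and the marker miRNAs given singly were picked after their values were seen. RefSeq tables (GRCm38.p6) gave mature sequences for 3 of the 5 members.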

Additional observations from a re-analysis of the deposited data

Results flagged for a closer look

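In groups of 4 arrays, a value was marked where its gap to the nearest other array as a share of the group's range exceeded Dixon's critical value, which chance does in about 1 of 20 groups; 2 of 54 groups were marked. On the 18-base miR-378a-5p probe, Sham 8 (−2.43, log2 scaled signal) stood above the other Sham arrays, the nearest at −2.47. On the 15-base miR-378c probe, UUO 2 (−4.78) was the only UUO array above the floor of −4.89.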

How the results depend on the processing

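The median log2 change of the family's 10 probes, −0.98, became −0.85 with a percentile taken over every mouse probe, −0.79 without scaling, −1.22 with quantile normalization, −0.58 with scaling to the dmr features and −0.80 with normexp correction; over the 5 members it was −1.32 with the total signal and −1.28 with the deposited ratios. With 1 array left out it ran from −1.02 to −0.93. In these runs 5 of 5 members were called lower each time, where 106 to 117 of the 408 tested miRNAs were. Of 179 values of single probes under these alternatives 179 were below 0. The family was picked with this comparison known and most of its probes overlap in sequence, so nothing is read from these counts. With a doubled floor the 15-base miR-378c probe was at the floor on all arrays and gave no value.

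Of the tested miRNAs, 162 had higher and 113 lower calls (58.9% higher), against 265 and 47 with the dmr features, 109 and 217 with the total signal and 118 and 207 with the deposited ratios. The share higher was 69.8% with the percentile over every mouse probe, 73.4% without scaling, 46.2% with normexp correction, 43.9% after quantile normalization, 84.9% with the dmr features, 33.4% with the total signal and 36.3% with the deposited ratios. With 1 array left out, 147 to 171 were higher and 106 to 117 lower. In both metabolic lists together 2 were higher and 7 lower; 6 were higher with the dmr features and 1 with normexp correction, no filter, the total signal or the ratios, and 12 were lower with quantile normalization, the total signal and the ratios. With 1 array left out 2 were higher and 6 to 8 lower.

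With the replicate number as a block 142 were higher and 84 lower, and the family's median change was −0.92; same-numbered samples correlated at −0.00, 0.12 and −0.30 in their deviations from the group means, so the numbers were not taken to pair the samples. The column of the slide as a block was added after seeing the data and gave 159 and 108. The arrays' number limits the precision, and the dimmest probes are limited by the floor.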
